A study of Rattus norvegicus with 17 samples.

Results

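The Rab GTPases of membrane traffic were taken as every probe set whose single gene symbol was Rab followed by a number and at most 1 letter, leaving out Rab3a, Rab3b and Rab3c of the synaptic vesicle. The array held 93 such probe sets for 53 genes, of 20832 probe sets with 1 symbol for 14218 genes. Of the 93, 67 probe sets of 45 genes were bright enough to be tested. A probe set is a group of short probes read as a single signal for a transcript, and 27 of the 53 genes had 1 of them.

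Rab proteins are small GTPases that mark the membranes of a cell. An exchange factor loads a Rab with GTP on its target membrane, the loaded form recruits effectors such as motors, tethers and fusion factors, and an activating protein ends the cycle by stimulating GTP hydrolysis. In neurons, Rabs direct secretory and recycling vesicles into the axon and carry endosomes, including those with neurotrophin signals, back to the cell body.

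The samples were spinal cord neurons of rats, filled by a tracer carried back along their axons and cut out of frozen sections by laser, about 1000 cells to a sample and 1 array to a sample. The Regenerating group (n = 7) held axotomised neurons labelled as regenerating, and the Non-regenerating group (n = 7) held axotomised neurons of the same 7 animals that did not regenerate. The Traced group (n = 3) came from 3 other animals whose labelled neurons were not axotomised. Tracer, lesion, strain, age and time after injury are not given in the sources used here, and traced sample MM15 was labelled a high yield replicate. Regenerating neurons were compared with Non-regenerating neurons within animals, and each axotomised group with the Traced group between animals. These last comparisons share the 3 Traced samples, so they are not independent of each other.

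Median signals ran from 45.2 to 76.9 on the 13 arrays of MM animals and from 32.8 to 39 on the 4 arrays of MOON animals, the 2 prefixes of the animal names. All 3 Traced samples were MM animals, with median signals of 63.7 to 76, against 32.8 to 60.6 in the Regenerating group and 33.9 to 76.9 in the Non-regenerating group. The arrays of Non-regenerating MM17 and Traced MM15 stood apart, with median correlations to the other arrays of 0.847 and 0.821, against 0.905 to 0.949 for the other 15. Neuron markers were bright on every array: Snap25, a release machinery protein, was at 2850 or more. The 11 neuron markers summed to 19208 to 33261 in Regenerating, 17569 to 52339 in Non-regenerating and 23521 to 53449 in Traced samples. Oligodendrocyte markers, 9 of 10 measured, summed to 10000 to 17119, 10365 to 19802 and 12753 to 17403 in the same order. Their Mbp, a myelin protein, was at 2802.5 or more on every array. Microglia markers were measured for 17 of 17 genes, and their summed signal was 11079 to 20835 in Regenerating, 10330 to 18957 in Non-regenerating and 6041 to 7731 in Traced samples. Itgam, a defining microglia marker, was at or below the offset of 16 on all arrays, and 13 of 13 tested microglia markers had higher means in either axotomised group than in the Traced group. Tyrobp, another microglia marker, was not among those tested. It was at 6.2 to 53.6 in Regenerating, 9.2 to 94.1 in Non-regenerating and 39.3 to 97.3 in Traced samples. Astrocyte markers, 9 of 10 measured, summed to 12599 to 21603 in Regenerating, 12480.2 to 22336 in Non-regenerating and 11404 to 12339 in Traced samples. Their means were higher than in the Traced group for 9 of 9 in Non-regenerating (median 0.54) and 8 of 9 in Regenerating neurons (median 0.48), and Gfap was at 2107 or more on axotomised and 1384 or less on Traced arrays. Motor neuron markers, 6 of 7 measured, summed to 881 to 3923 in Regenerating, 498 to 939 in Non-regenerating and 540 to 722 in Traced samples. The part of other cells or neuron types in the Rab differences was not tested, and in captured tissue fewer cells of a type cannot be told apart from less RNA per cell.

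Promoter sequences are shown for Rab5b, the gene with the only probe set past the test, and for Rab7a, whose larger difference ran the other way. Each covers 250 bases before to 50 bases after the gene's start in RefSeq's GRCr8 assembly, on the minus strand, at chr7:1712687-1712986 for Rab5b and chr4:122064136-122064435 for Rab7a. Capitals mark a GC box, searched on both strands as GGGCGG or CCGCCC.
Rab5b: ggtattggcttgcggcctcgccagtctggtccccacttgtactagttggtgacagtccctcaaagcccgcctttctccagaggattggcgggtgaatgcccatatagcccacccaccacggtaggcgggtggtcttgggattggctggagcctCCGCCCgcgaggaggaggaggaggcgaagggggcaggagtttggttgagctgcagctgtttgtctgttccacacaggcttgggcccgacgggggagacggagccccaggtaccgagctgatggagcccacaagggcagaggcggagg
Rab7a: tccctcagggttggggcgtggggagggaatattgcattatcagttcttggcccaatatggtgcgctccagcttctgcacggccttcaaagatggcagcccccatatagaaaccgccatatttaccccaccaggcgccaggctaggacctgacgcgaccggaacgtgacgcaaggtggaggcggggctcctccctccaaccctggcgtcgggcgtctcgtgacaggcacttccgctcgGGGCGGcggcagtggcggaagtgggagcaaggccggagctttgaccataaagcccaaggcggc
Both promoters held 1 GC box. Such a match was present in 33 of the 42 member promoters in the table, or 78.6%, and in 41.8% of the 21851 promoters of protein-coding genes. The E-box CACGTG of the lysosomal gene network was in 4 of 42 member promoters, or 9.52%, against 7.02% of all. An AP-1 site, TGACTCA or TGAGTCA, was in 4 of 42, against 4.12% of all, and the cAMP response element TGACGTCA was in 1 of 42, against 2.1%. These are matches of letters and not measured binding sites.

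Within animals, the Rab genes of Regenerating and Non-regenerating neurons could not be separated by the test. No Rab probe set passed an adjusted p of 0.05 (limma, Benjamini-Hochberg over 18625 probe sets), as for 0.0161% of all probe sets, and the smallest adjusted p of a member was 0.678. At an unadjusted p under 0.05, 0 of 67 were higher (background 4.26%) and 1 of 67 was lower (background 2.81%). The signs were evenly spread, with 33 higher and 34 lower, and the median log2 difference was -0.00 for the family and -0.00 for all probe sets. Log2 differences here are of signal plus 16, which makes changes of dim probe sets look smaller than they are.

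Rab6b 1392478_at was the single member higher in all 7 animals, or 1.49%, near the background of 1.12%. No member was lower in all 7 (background 0.966%). Rab6b is the neuron-enriched form of the Golgi Rab6. Its signal had a lowest, median and highest value of 365, 483 and 694 in Regenerating and of 349.9, 420 and 535 in Non-regenerating neurons. Paired log2 differences were 0.06, 0.29, 0.37, 0.20 and 0.06 in MM11, MM13, MM14, MM16 and MM17, and 0.38 and 0.22 in MOON265 and MOON266. The mean of 0.22 (SE 0.11) had an adjusted p of 0.697, and the second Rab6b probe set, 1388632_at, gave 0.19 with 5 of 7 animals higher, and 0.04 without MM17. The ubiquitous Rab6a was higher in 6 of 7 animals at 1371103_at, by 0.36 (SE 0.20) and by 0.22 without MOON265, and gave -0.13 (SE 0.16) at 1372707_at.

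Rab38, which works with Rab32 on lysosome-related organelles, was the lower member at an unadjusted p under 0.05. It had a lowest, median and highest signal of 54.2, 84.3 and 140.2 in Regenerating and of 85.3, 128 and 277 in Non-regenerating neurons. It was lower in 6 of 7 animals, but the groups overlapped. The log2 difference was -0.55 (SE 0.21, adjusted p 0.678), with -1.90 in MM17 alone, and -0.33 without that animal. In MM animals it was -0.75 and in the MOON animals -0.06. Rab32 itself was at 98.7 ± 21.9 and 98.2 ± 28.8 (SD, n = 7 each), a difference of 0.03.

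The other Rabs with the smallest p within animals were spread over the pathway. Rab34 (1376573_at), linked to lysosome position, gave 0.36 (SE 0.18, 5 of 7 animals higher), and 0.22 without MM17, while its other probe set, 1375558_at, gave -0.21. Rab15 (1373646_at), of the recycling endosome, gave 0.33 (SE 0.17, 5 of 7 higher), with 1.26 in MM17 and 0.18 without it. Its other tested probe set, 1397839_at, had paired differences from -0.34 to 0.41. Rab20 (1398422_at), of phagosomes and early endosomes, gave -0.29 (SE 0.15) and was lower in 6 of 7. Paired differences at its other tested probe set, 1384148_at, ran from -0.55 to 0.21. Rab11b of recycling endosomes gave -0.33 (SE 0.17), with -1.16 in MM11 and -0.20 without it. All 4 had adjusted p of 0.697 to 0.702, and none of their groups separated.

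The Rabs with known parts in axon traffic had intervals that included 0 within animals. Rab5a of early endosomes had a difference of -0.08 with a 95% interval of -0.34 to 0.18. Rab7a of late endosomes and retrograde transport was 0.18 (interval -0.11 to 0.47), higher in 6 of 7 animals at 1387797_at, and -0.15 (interval -0.44 to 0.15) at 1398838_at. Rab11a, which brings integrins and receptors into growing axons, was 0.16 (interval -0.10 to 0.43) and -0.00 (interval -0.28 to 0.28) at its 2 probe sets. None of the intervals of Rab5a, Rab7a and Rab11a reaches beyond 0.47 from 0. That of Rab11b ran further, from -0.70 to 0.04, as did several in the next paragraph.

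Exocytic Rab8a was 0.02 (interval -0.24 to 0.29), and Rab10, which drives membrane addition to axons, was -0.03 (-0.37 to 0.32) and -0.25 (-0.56 to 0.06). Rab35, of fast recycling and neurite outgrowth, was 0.01 (-0.28 to 0.29), and Rab21, an integrin carrier, was -0.00 (-0.27 to 0.26). Rab13, which acts at tight junctions and in neurite outgrowth, was -0.26 (-0.61 to 0.10). Rab14, which acts between Golgi and endosomes, was between 0.01 and 0.15 at 3 probe sets. In the Golgi and endoplasmic reticulum, Rab1a was -0.08 (-0.36 to 0.20), Rab18 of lipid droplets was 0.01 (-0.32 to 0.33), and Rab2a was 0.26 (-0.07 to 0.58) at 1370087_at and -0.17 (-0.50 to 0.15) at 1392681_at. The secretory granule Rabs gave 0.17 (-0.21 to 0.55) for Rab27a and -0.10 (-0.52 to 0.31) for Rab27b at 1378107_at.

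**Figure D1:**
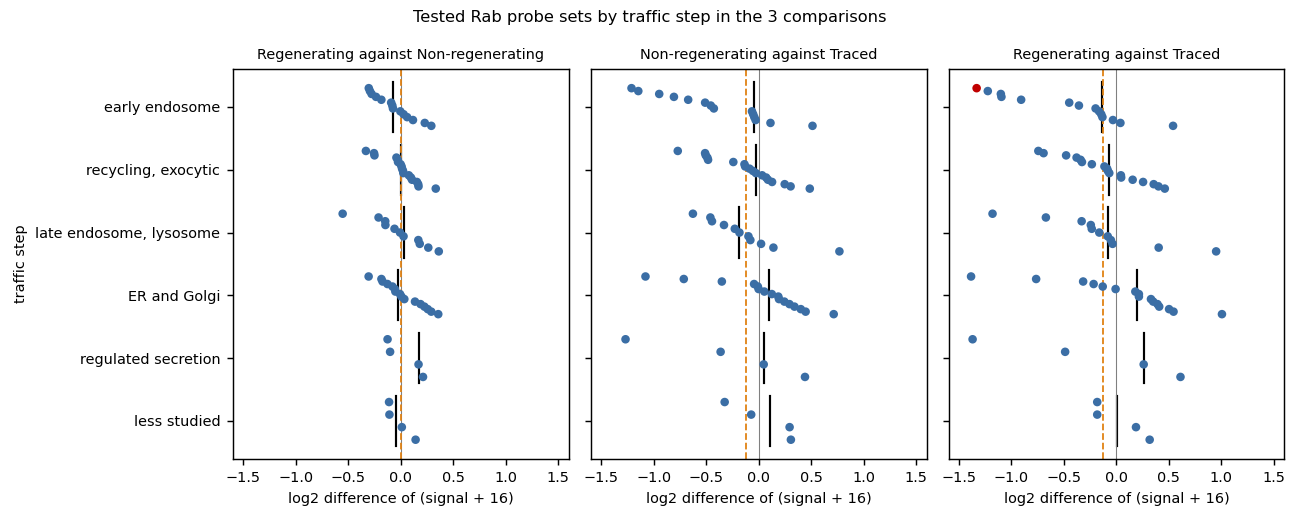
Log2 difference of signal plus 16 (horizontal axis) for each of the 67 tested Rab probe sets, placed by traffic step (vertical axis), in the 3 comparisons. Black bars give the median over genes with 1 probe set a gene, the dashed line the median of all probe sets, and red the 1 probe set with an adjusted p under 0.05. Points lie from -0.55 to 0.36 within animals and reach -1.39 and 1.01 against the Traced group.

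Against the Traced group, the Rab differences were larger. In Regenerating neurons 1 Rab probe set, for Rab5b, passed the adjusted threshold and was lower, and 66 did not (background 0.215%). At an unadjusted p under 0.05, 6 of 67 were higher, or 8.96% (background 5.98%), and 11 were lower, or 16.4% (background 17.6%). Both shares lie near their background, so the family as a whole moved about as all probe sets did. The median log2 difference was -0.11 over the Rab probe sets and -0.12 over all. With each array centred on its median these became 0.27 and 0.26, and the split of 25 higher and 42 lower became 52 higher and 15 lower, so the sign of the family's median depends on the scaling. Higher means made up 37.3% of the Rab probe sets (all 40.8%), and 77.6% after centring (all 69.2%). Centring moves every member by the same amount.

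Rab5b is 1 of the 3 Rab5 forms that tether and fuse early endosomes. Of its 4 tested probe sets, 1399153_at alone passed the adjusted threshold, with lower signals in Regenerating than in Traced neurons. At 1399153_at the Regenerating signals were 48.9, 51.2, 44.4, 67.9 and 42.5 in MM11, MM13, MM14, MM16 and MM17, and 45.9 and 33.3 in MOON265 and MOON266. The Traced signals were 129, 113 and 198 in MM18, MM19 and MM15. The lowest Traced sample thus lay above the highest Regenerating sample. The means were 47.7 ± 10.6 (SD, n = 7) and 147 ± 45.3 (SD, n = 3), a log2 difference of -1.33 (SE 0.25, 95% interval -1.87 to -0.79, adjusted p 0.049), or 2.52-fold lower.

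This Rab5b call sits at the threshold. Without Traced MM15 the log2 difference was -1.12 with an adjusted p of 0.35, and the call was also absent without either other Traced sample or without Regenerating MM11, MM13, MM14, MOON265 or MOON266. It was kept in 8 of 21 other settings, over which the difference ranged from -1.53 to -0.90. In MM animals alone it was -1.26, with an adjusted p of 0.053. The Non-regenerating samples read 30.9, 51.1, 48.1, 71.2 and 194 in the 5 MM animals in that order and 30.6 and 40.3 in the MOON animals, so 6 of 7 lay between 30.6 and 71.2 and MM17 lay among the Traced samples. Their difference from the Traced group was -1.15 (SE 0.42, adjusted p 0.472), and -1.41 without MM17. The paired difference of the axotomised groups was -0.19 (SE 0.24), and 0.09 without MM17, so its sign rests on that animal.

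The 3 other tested Rab5b probe sets also had lower means, and none passed. Probe set 1393288_at gave -1.23 (SE 0.34, adjusted p 0.0708) and 1378035_at -1.10 (SE 0.36, adjusted p 0.0927) in Regenerating against Traced neurons. Both were dim, with Traced means of 142 ± 27.6 and 102 ± 8.8 (SD, n = 3). The called 1399153_at was about as dim, at 147 ± 45.3 (SD, n = 3) in Traced samples. The bright 1388823_at, at 2520 ± 692 in Regenerating (SD, n = 7) and 3290 ± 1355 in Traced samples (SD, n = 3), gave -0.36 (SE 0.29, adjusted p 0.484), -0.04 without Traced MM15 and 0.03 after centring. Its Traced values were 2533, 2483 and 4854 in MM18, MM19 and MM15, so MM15 alone was high. Another Rab5b probe set, 1392643_at, was too dim to test.

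The remaining Rab5 forms did not pass. Rab5c, another early endosome form, was at 144 ± 54.2 in Regenerating (SD, n = 7) and 274 ± 60.4 in Traced samples (SD, n = 3), a difference of -0.91 (SE 0.31, adjusted p 0.104), and the groups overlapped. The Traced signals of Rab5c were 309, 205 and 309.9 in MM18, MM19 and MM15. Rab5a, the best studied form, was at 1779 ± 288 and 1948 ± 122, a difference of -0.14 (SE 0.20).

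**Figure D2:**
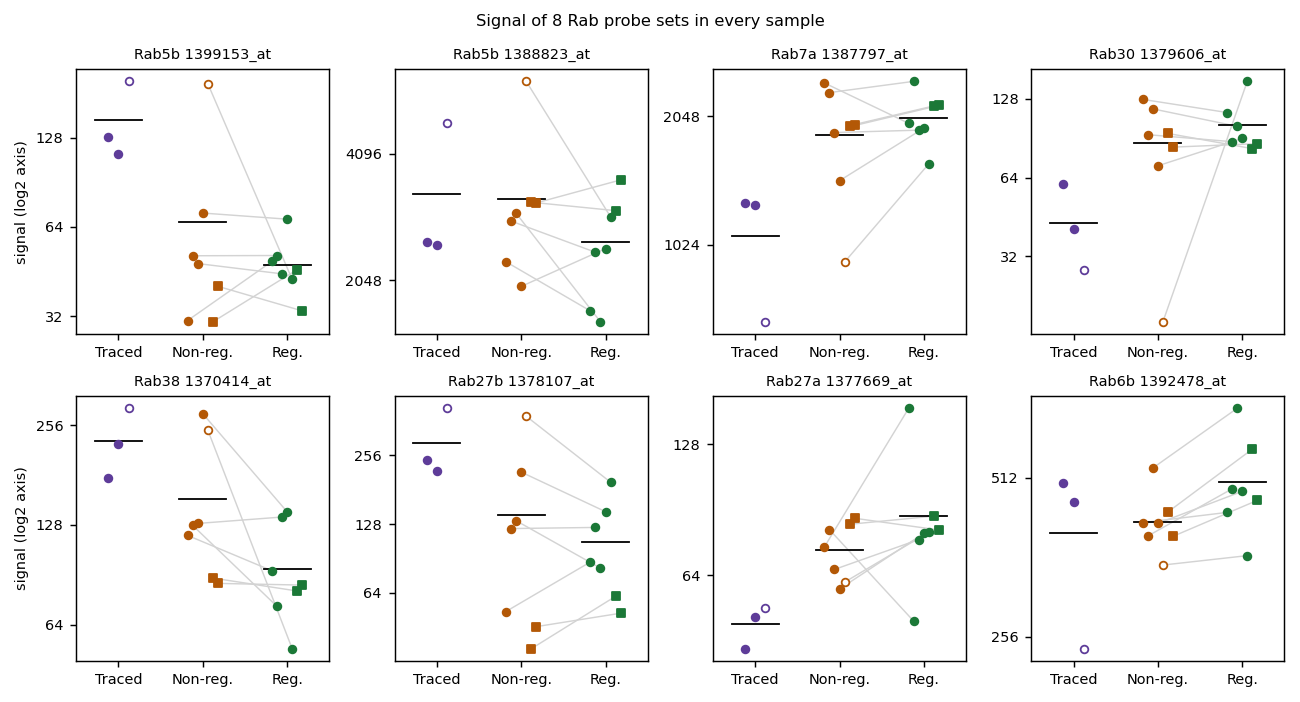
Signal on a log2 axis (vertical) for 8 Rab probe sets in each Traced, Non-regenerating and Regenerating sample; black bars are group means, grey lines join the samples of an animal, circles are MM animals and squares MOON animals, and open circles are Non-regenerating MM17 and Traced MM15. Rab5b 1399153_at lies from 33.3 to 67.9 in Regenerating and from 113 to 198 in Traced samples, and Rab7a 1387797_at from 1585 to 2469 and from 676 to 1281.

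Rab7a showed the reverse order, without passing the test. It controls late endosome to lysosome fusion and moves signalling endosomes along the axon. At 1387797_at the lowest, median and highest signals were 1585, 1969 and 2469 in Regenerating and 933, 1944 and 2448 in Non-regenerating neurons, and the Traced values were 1281, 1267 and 676 in MM18, MM19 and MM15. Every Regenerating sample was above every Traced sample, while among the Non-regenerating samples MM17, at 933, fell within the Traced range. The Regenerating difference was 0.95 (SE 0.23, interval 0.45 to 1.45, adjusted p 0.0684), or 1.93-fold, and 0.65 without Traced MM15. The Non-regenerating difference from the same Traced samples was 0.77 (SE 0.30, adjusted p 0.472), and 0.47 without Traced MM15. The dimmer probe set 1398838_at gave -0.24 (SE 0.23) and -0.10 for these comparisons, so the probe sets of Rab7a did not give the same direction.

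In all, 4 Rab probe sets were higher in every Regenerating than in every Traced sample, or 5.97% (background 2.35%), and 7 were lower, or 10.4% (background 9.36%). The higher ones were for Rab7a, Rab30, Rab2a and Rab6a, and the lower ones for Rab5b, Rab38, Rab1b at 2 probe sets, Rab27b, Rab20 and Rab13. Other than the Rab5b probe set, none passed the adjusted threshold.

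The Golgi Rabs among these were Rab30, Rab2a, Rab6a and Rab1b. Rab30 (1379606_at) was at 60.3, 40.7 and 28.3 in Traced MM18, MM19 and MM15 and had a lowest, median and highest signal of 82.6, 90.4 and 149 in Regenerating neurons. Its difference was 1.01 (SE 0.26, adjusted p 0.0684), or 2.01-fold, and 1.39 with an adjusted p of 0.0191 after centring each array. Its other probe set, 1398640_at, varied from 5.3 to 189 within the Traced group and gave 0.39, and -0.58 without Traced MM15. Rab2a of the intermediate compartment gave 0.50 (SE 0.21, adjusted p 0.166) at 1370087_at and -0.22 at 1392681_at, where it was 0.02 without Traced MM15. Rab6a gave 0.54 (SE 0.23, adjusted p 0.168) at 1371103_at, a dim probe set at 63.5 ± 11.6 in Regenerating (SD, n = 7) and 38.3 ± 7.0 in Traced samples (SD, n = 3), and 0.21 at its bright probe set 1372707_at.

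Rab1b, which starts traffic from the endoplasmic reticulum to the Golgi, had lower means in Regenerating neurons at both tested probe sets. At 1392855_x_at, whose probes can also match related sequences, the Traced values were 173, 139 and 419 in MM18, MM19 and MM15 and the Regenerating values ran from 45.3 to 125. The difference was -1.39 (SE 0.35, adjusted p 0.0684), and -0.94 without Traced MM15. At 1382947_at it was -0.77 (SE 0.23, adjusted p 0.0771), with Regenerating signals of 108 to 165 and Traced signals of 196 to 259. Rab1a, its close relative, gave 0.21 (SE 0.25), and -0.01 without Traced MM15.

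From the other steps, Rab38, Rab27b, Rab20 and Rab13 were lower in every Regenerating than in every Traced sample. Rab38 was at 177, 225 and 288 in Traced MM18, MM19 and MM15 against 54.2 to 140.2 in Regenerating neurons. Its difference was -1.18 (SE 0.29, adjusted p 0.0684), and -0.79 after centring each array, which moves the others upward too. Rab27b docks secretory granules, and at 1378107_at it was at 244, 218 and 411 in the same Traced samples against 52.2 to 195, a difference of -1.37 (SE 0.35, adjusted p 0.0684). Its other probe set, 1370122_at, gave -0.49 (SE 0.24). Rab20 (1398422_at) gave -1.10 (SE 0.31, adjusted p 0.0713) but -0.13 at 1384148_at. Rab13 gave -0.74 (SE 0.29, adjusted p 0.135).

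Rab27a, the partner of Rab27b in granule and exosome release, had higher means in the axotomised groups. It was at 43.4, 51.2 and 53.9 in Traced MM18, MM19 and MM15, at 59.5, 74.3 and 86.5 (lowest, median, highest) in Non-regenerating and at 50.2, 80.4 and 155 in Regenerating neurons. It was the only tested member that was higher in every Non-regenerating than in every Traced sample (1.49%, background 1.1%). In the Regenerating group 1 sample overlapped the Traced range. The differences were 0.44 (SE 0.25, adjusted p 0.49) for Non-regenerating and 0.61 (SE 0.28, adjusted p 0.198) for Regenerating neurons against the same Traced samples.

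**Figure D3:**
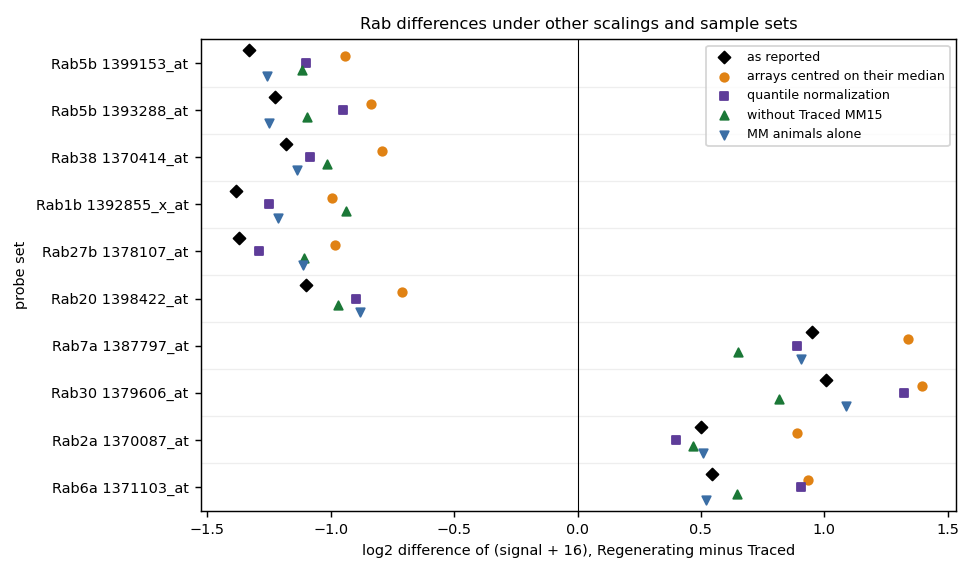
Log2 difference of Regenerating minus Traced neurons (horizontal axis) for 10 Rab probe sets (vertical axis), as reported and under 4 other choices of scaling or samples. The 6 probe sets with lower means stay below 0 and the 4 with higher means stay above 0 under the choices drawn, while centring each array on its median moves every one of them upward, Rab5b 1399153_at from -1.33 to -0.94 and Rab7a 1387797_at from 0.95 to 1.34.

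In Non-regenerating against Traced neurons no Rab probe set passed the adjusted test (0 of 67, background 0.043%). At an unadjusted p under 0.05, 2 of 67 were higher (background 2.68%) and 5 were lower (background 7.61%), and the smallest adjusted p was 0.472. Rab5b 1378035_at was the only tested member lower in every Non-regenerating than in every Traced sample (1.49%, background 1.47%). It was at 95.2, 99 and 112 in Traced MM18, MM19 and MM15 and at 3.6, 39.7 and 85.6 (lowest, median, highest) in Non-regenerating neurons, a difference of -1.21 (SE 0.44). Rab27b 1378107_at gave -1.27 (SE 0.54), with MM17 at 379 among the Traced values and the other Non-regenerating samples lower. Rab22a 1372862_at, of early and recycling endosomes, gave 0.51 (SE 0.23), and 0.30 without Traced MM15, while its other probe sets gave -0.46 and -0.43.

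The array of Non-regenerating MM17 lay at the Traced end of its group for many of these Rabs. Of the 11 Rab probe sets lower in Regenerating than in Traced neurons at an unadjusted p under 0.05, MM17 was the highest Non-regenerating sample for 9, or 81.8%, against 81.6% of all 3274 such probe sets. Of the 6 higher ones it was the lowest for 3, or 50%, against 66.8% of 1113. Without it, 10 Rab probe sets were lower and 3 higher than in the Traced group at an unadjusted p under 0.05, or 14.9% and 4.48%, against 18.3% and 5.88% of all probe sets. The smallest adjusted p was then 0.0729 and none was called. Its part, and that of Traced MM15, in the difference between the axotomised groups was not tested further.

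Probe sets of 1 Rab gene often pointed in different directions. Of the 17 genes with more than 1 tested probe set, 7 had probe sets of opposite sign in Regenerating against Traced neurons, or 41.2%, against 51.1% of the 2211 such genes on the array. These were Rab11a, Rab14, Rab15, Rab22a, Rab2a, Rab7a and Rab8b. Within animals it was also 7 of 17, against 51.6%, and for Non-regenerating against Traced neurons 9 of 17, or 52.9%, against 49.9%. Rab14 (1375687_at) varied widely within the Traced group, with signals of 188, 371 and 2231 in MM18, MM19 and MM15. Its difference was -0.69 (SE 0.51) with MM15, 0.30 without it and -1.43 without MM18. Rab8b, of exocytic carriers, gave 0.35 and 0.40 at its 1391347_at and 1383709_at probe sets and -0.34 at 1370539_at.

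**Figure D4:**
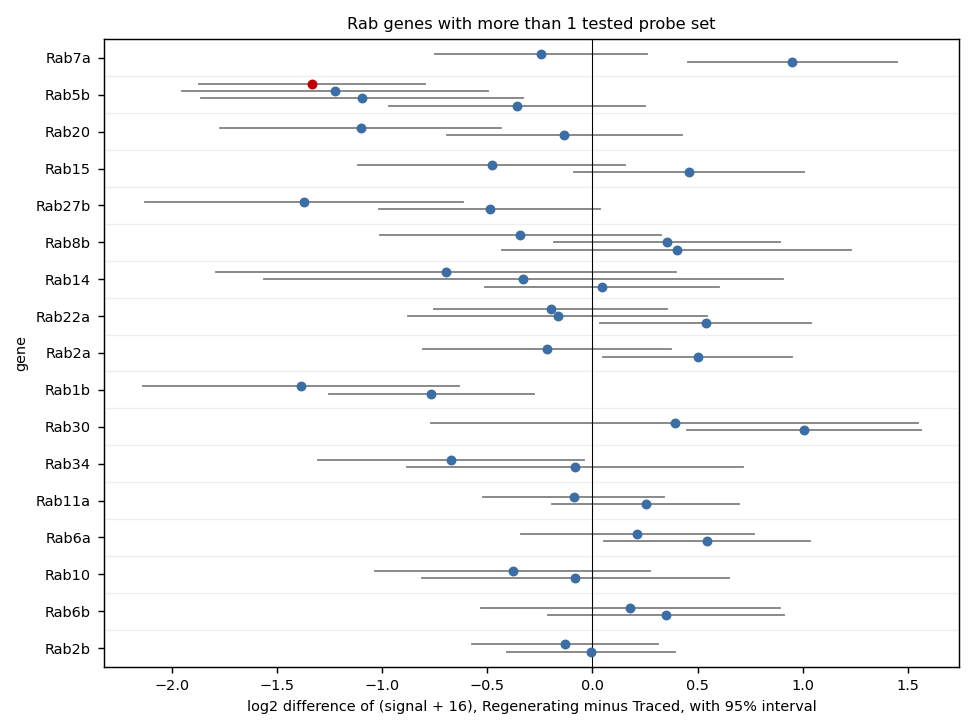
Log2 difference of Regenerating minus Traced neurons (horizontal axis) with its 95% interval for every tested probe set of the 17 Rab genes (vertical axis) with more than 1, ordered from the widest to the narrowest disagreement. The 2 Rab7a probe sets lie at 0.95 and -0.24 and the 4 Rab5b probe sets between -1.33 and -0.36, with the called one in red.

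The Rabs were also counted by traffic step, with 1 probe set a gene. Against the Traced group, Regenerating neurons had lower means for 6 of 8 early endosome genes (median -0.14). The same held for 7 of 9 late endosome and lysosome genes (-0.08) and 6 of 11 recycling and exocytic genes (-0.07). Over all probe sets the median was -0.12, and 40.8% had higher means. The endoplasmic reticulum and Golgi genes had higher means for 6 of 10 (median 0.20), the regulated secretion genes for 2 of 3 (0.26) and the less studied Rabs for 2 of 4 (0.00). The Golgi median fell below 0 with array weights, to -0.09, and the secretion median without the filter, to -0.31. After centring, the medians were 0.25, 0.31, 0.32, 0.59, 0.65 and 0.39 in this order. Within animals the same steps had medians of -0.08, 0.03, -0.00, -0.03, 0.17 and -0.05. No step had a gene past the adjusted threshold in this count, since the called Rab5b probe set was not the bright one that stood for its gene.

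A further 8 Rab genes had no probe set bright enough to be tested. They were Rab19, Rab25, Rab36, Rab37, Rab39a, Rab3d, Rab43 and Rab4b. Rab37, a secretory granule Rab, had the highest group mean among them, at 35.8, and the highest single signal of 62.2. Rab25, the epithelial Rab11 relative, had a highest group mean of 29.97 and Rab3d, a granule Rab of secretory cells, of 18.4. At these signals neither presence nor change could be read, and 5 member probe sets were at or below 16 on all arrays.

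The regulators and effectors of the Rab cycle were counted with 1 probe set a gene. Of 135 listed genes 120 were measured and 98 tested, and 0 passed the adjusted threshold in any of the 3 comparisons. Within animals, 59 were higher and 39 lower, with 6 higher and 0 lower at an unadjusted p under 0.05 and a median of 0.04. Higher means made up 60.2% of the list, against 49.8% of all probe sets. The 6 and 0 are shares of 6.12% and 0%, against 4.26% and 2.81% of all probe sets. The exchange factors held 4 of those 6, but of their 27 tested genes 14 were higher and 13 lower, with a median of 0.03. Dennd1b, the Rab35 exchange factor, gave 0.40 (SE 0.13). Trappc1, a subunit of the complex that loads Rab1, gave 0.42 (SE 0.14). Rabgef1, which activates Rab5, gave 0.56 (SE 0.20), with 148 in Regenerating and 99 in Non-regenerating neurons as means of 7. All 3 had an adjusted p of 0.678. On the lower side, Tbc1d4, an activating protein for Rab10, gave -0.32 (SE 0.16), and -0.15 without MM17, while Rab3gap1 gave -0.26 and the complex subunit Trappc10 gave -0.23.

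Against the Traced group, 50 of the 98 were higher and 48 lower in Regenerating neurons, with 9 and 14 at an unadjusted p under 0.05 and a median of 0.04, or 0.43 after centring. Higher means made up 51% of the list, against 40.8% of all probe sets. The 9 and 14 are shares of 9.18% and 14.3%, against 5.98% and 17.6% of all probe sets. Tbc1d14, an activating-domain protein that acts with Rab11 in autophagosome formation, gave 1.19 (SE 0.31, adjusted p 0.0684), and 0.70 without Traced MM15. Tbc1d23, a golgin-binding adaptor at the trans-Golgi, gave 1.29 (SE 0.37, adjusted p 0.0745). Rabggtb, the catalytic subunit of the enzyme that adds lipid tails to Rabs, gave 1.06 (SE 0.36, adjusted p 0.103), and 0.41 without Traced MM15. The lower side held Sbf1 at -1.02, Sgsm1 at -1.10 and Dennd6a at -0.97, with adjusted p of 0.0704, 0.0713 and 0.0772, and Sgsm1 was at -0.66 without Traced MM15. Non-regenerating neurons had 42 higher, or 42.9% against 38.8% of all, and 56 lower. At an unadjusted p under 0.05 they had 1 and 2, or 1.02% and 2.04% against 2.68% and 7.61% of all. Their smallest p on the higher side were for Tbc1d23, with a mean of 1080.4 against 514 in Traced neurons, Rgp1 of the Rab6 exchange factor (a log2 difference of 0.68) and Dennd4c (0.57). On the lower side they were for Mlph, the Rab27a link to myosin, with a mean of 35.6 against 82.9, Sbf1 (-0.84) and Tbc1d8 (-0.64). All 6 had an adjusted p of 0.472.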

How the data were processed

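RNA of laser-captured neurons was amplified in 3 rounds, labelled and hybridised to 1 Affymetrix rat array a sample, per the labels' protocols. The authors deposited a linear intensity signal for each of 31099 probe sets on 17 arrays, made with GCOS per the submitters' processing notes, version and settings not stated in the sources used here. Probe sets were named from GEO's platform annotation, and all 93 members matched RefSeq gene identifiers with the same symbol.

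The signals were used as log2(signal + 16), the offset being the 25th percentile of all signals. Leaving out 57 control probe sets and the 12417 under the 40th percentile of mean log2 signal left 18625. Differences were tested with limma (version 3.58.1, under R version 4.3.3) by lmFit and trended eBayes, Benjamini-Hochberg adjustment over all 18625 and a threshold of 0.05. The animal was a block in Regenerating against Non-regenerating neurons, since the titles name the animal of each sample and the study's design compares within animals. The deviations of the 2 samples of an animal correlated at 0.34 to 0.71. The other comparisons were fitted on their own 10 samples. The fit was tested on simulated data. No arrays held identical values. With 7 and 3 animals, their number limits the precision. The p-values assume that samples of a group are separate animals, as the names state.

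All members may be named. Full values are given for called members, for the 3 with the smallest p on each side of each comparison, for Rabs with known parts in axon traffic and for genes with several probe sets. Lists were counted with the brightest probe set of a gene. The members and lists were chosen with earlier results of these data known. Alternatives were the offset, the filter, centring, quantile normalization, no trend, array weights, a name-prefix term, MM or MOON animals alone, 1 fit with the animal as a random block, no block and leaving out samples. Promoters were read with Python 3.11.15. Figures were drawn with matplotlib 3.10.9.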

Additional observations from a re-analysis of the deposited data

Results flagged for a closer look

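Within 30 groups of 7 samples checked for a sample far from the others (15 Rab probe sets), 3 stood out, and all 3 were the Non-regenerating sample of MM17. The rate of about 1 in 20 by chance does not apply here. The groups share the same arrays, and the probe sets were those with the smallest p. Rab15 1373646_at was at 59.7, with the other 6 at 195 to 297. Rab30 1379606_at was at 18, with the others at 71 to 127. Rab5b 1399153_at was at 194.4, with the others at 30.6 to 71.2.

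The paired difference had opposite signs in every MM and every MOON animal for 2 of the 67 tested Rab probe sets. The share over all probe sets was not counted, so these are not read as a result about the Rabs. For Rab11a 1398814_at, the mean was 0.27 in MM and -0.10 in MOON animals, a gap of -0.38 with an interaction adjusted p of 0.925 (limma). For Rab5b 1393288_at, the means were -0.48 and 0.23, a gap of 0.71 with an adjusted p of 0.919. No Rab probe set passed the interaction test, beside 1 of all 18625 probe sets. At an unadjusted p under 0.05 there were 3 of 67, with the share over all probe sets not counted.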

How the results depend on the processing

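Regenerating against Non-regenerating neurons had 0 Rab probe sets called in the 19 other settings, 0 also with no replicate block. In the MOON animals alone 2 differences that were not called turned, Rab15 to -0.012 and Rab11b to 0.0099. Non-regenerating against Traced neurons had 0 called, and 11 with array weights (16.4%, against 13.1% of all probe sets). Regenerating against Traced neurons had 1 called, but 0 with the smaller offset, without a filter and in MM animals alone. The stricter filter left 42 Rab probe sets with 0 called, and Rab5b 1399153_at was too dim to be among them. This comparison also had 0 without the 2 arrays that stand apart and in 1 fit with the animal as a random replicate block. It had 8 with the larger offset (12.1%, all 4.68%), 2 after centring (2.99%, all 1.77%), 2 after quantile normalization (all 1.15%) and 14 with array weights (20.9%, all 16.8%). Leaving out 1 sample gave 0 to 11, the 11 without Regenerating MM17 (16.4%, all 8.08%). Of 368 values of 18 single Rab differences in other settings, 334 kept their direction and side of the threshold. Against the Traced group the family median was above 0 only after centring. Of 690 family and list medians 650 moved by less than the spread between samples. Only 3 Traced animals, a call at the threshold and dim probe sets limit these comparisons.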
